A study of Saccharomyces cerevisiae with 25 samples.

Results

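Budding yeast deprived of phosphate passed through a steep change in transcript levels between 180 and 255 min, and the libraries of 225, 240 and 255 min were set against those of 180, 195 and 210 min to describe its end. These 6 of the 25 RNA-seq libraries of the series were picked by their labelled time, but the windows were set with earlier results of these data known. All 25 came from Saccharomyces cerevisiae in the BY4741 background, a MATa haploid that lacks HIS3, LEU2, MET17 and URA3, and all carry one labelled genotype, pho84pr-YFP with delta-vip1. pho84pr-YFP puts a fluorescent protein under the promoter of the phosphate transporter gene PHO84, and VIP1 encodes a kinase that makes inositol pyrophosphates. Per the labels' protocols, cells grown with ample phosphate were washed, moved to medium without it and sampled at 15 min intervals to 360 min, with 1 library at each time. The labels name no second culture, and wild-type cells were not analysed here. Consecutive times therefore stand in for replicates, 3 in each window. The p-values measure the spread among neighbouring times of this time course, and levels were still moving inside both windows.

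When phosphate runs short, the transcription factor Pho4 turns on the PHO regulon, a set of genes for phosphate uptake, phosphatases and polyphosphate. Growth and stress programmes react to nutrients as well. Genes of the cytosolic ribosome, which Rap1, Fhl1 and Ifh1 transcribe while TORC1 and protein kinase A signalling is high, are turned down when growth slows, and Msn2 and Msn4 raise a broad set of stress genes through the stress response element. Ribosomal protein mRNA is a large part of the mRNA of growing yeast, so a fall in its share raises the share of other transcripts in a library.

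Values are RPM (a gene's reads in each 1000000 of its library). The lowest listed value of each library was taken to stand for 10 reads, and library sizes were worked out from it. On that reading the 6 libraries held 1273799 to 2009310 reads at 225 to 255 min and 678064 to 1305436 reads at 180 to 210 min, the 210 min library being the shallowest of them. VIP1, the gene named as deleted, was listed at 17.4, 19.8 and 19.6 RPM at 225, 240 and 255 min, against 14.0, 26.8 and 14.8 RPM at 180, 195 and 210 min. Reads at the VIP1 locus were therefore present in all 6 libraries, and the labels do not say which part of the gene was removed. All 7 MATa-specific genes were listed in the 6 libraries, with a summed level of 4817 to 5198 RPM at 225 to 255 min and 4569 to 4634 RPM at 180 to 210 min, and 0 of the 4 markers deleted in BY4741 were listed in all 6. Of 4 MATalpha-specific genes 1, STE3, was listed throughout, at 28.2 to 33.0 RPM at 225 to 255 min and 18.7 to 54.6 RPM at 180 to 210 min.

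The share of reads from cytosolic ribosomal protein genes (RPL, RPS and RPP genes) was 7.88%, 6.13% and 5.20% at 225, 240 and 255 min, against 25.8%, 20.6% and 12.05% at 180, 195 and 210 min. The windows did not overlap, and the share was lower at each time than at the one before. The mean was 6.40% ± 1.36 at 225 to 255 min and 19.5% ± 6.93 at 180 to 210 min (SD, n = 3 each), a difference of -13.1 percentage points with an exact permutation p = 0.1 (two-sided), the smallest that 3 against 3 libraries allow. Large subunit genes held 4.01% ± 0.844 at 225 to 255 min and 11.97% ± 4.15 at 180 to 210 min, and small subunit genes held 2.39% ± 0.512 and 7.49% ± 2.78 in the same order (SD, n = 3 each). For comparison, the share was 33.8% at 0 min and 4.55% to 5.39% from 270 to 360 min. In bulk RNA, fewer cells that make a transcript and less of it in each cell cannot be told apart.

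**Figure D1:**
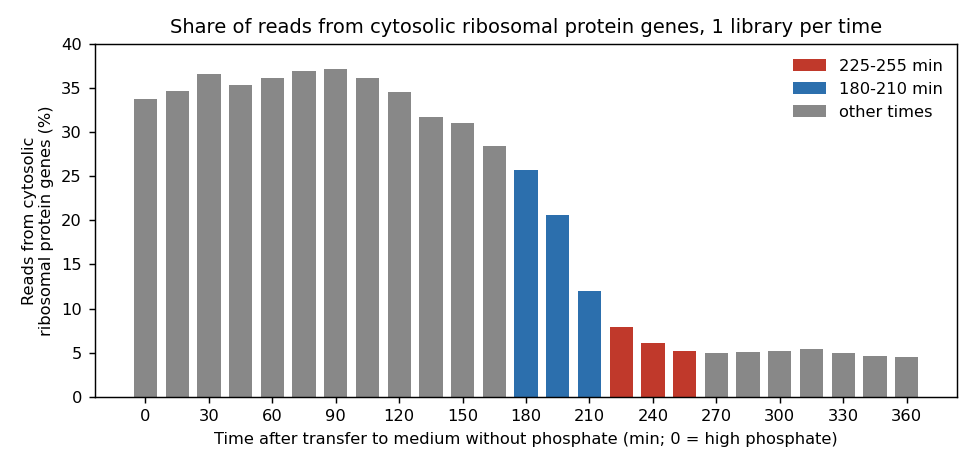
Share of reads (%, vertical axis) from cytosolic ribosomal protein genes in each of the 25 libraries against time after transfer (min, horizontal axis), 1 bar per library; red bars are 225 to 255 min and blue bars 180 to 210 min. The red bars lie at 5.20% to 7.88% and the blue bars at 12.05% to 25.8%, with 33.8% at 0 min.

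Beside the values as deposited, a second scale leaves this loss out. As deposited, the median of all 4838 genes listed in the 6 libraries was 0.16 on the log2 scale above its level at 180 to 210 min. When each library was instead scaled to the reads of genes other than ribosomal protein genes, every log2 difference was 0.22 lower and the median was -0.06. Each scaled difference or list median is therefore the deposited one less 0.22, and values are as deposited unless named as scaled. Above 0 lay 69.9% of all genes as deposited and 43.4% scaled.

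Between the windows 191 genes were called by limma, with 55 that rose and 136 that fell, which is 1.14% and 2.81% of the 4838 tested (3.95% in either direction). Genes were called when the p-value, adjusted after Benjamini and Hochberg, lay under 0.05 and the log2 difference was 1 or more in size. After scaling 165 genes were called (3.41%), 26 that rose (0.537%) and 139 that fell (2.87%). All 26 of these rises and 130 of these falls were also called as deposited, so the falls changed little in number with the scale and the rises became fewer. Without the requirement on size 254 genes passed, and 1140 had an unadjusted p under 0.05, 858 higher (17.7%) and 282 lower (5.83%), which are the shares for reading the unadjusted counts of lists. In each of the 191 called genes the 3 values of one window lay wholly outside the 3 of the other, which held for 23.2% of all genes tested upward and for 7.40% downward.

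The calls depended on single libraries, and some directions on how time was fitted. Leaving out the 195, 240 or 255 min library gave 0 calls with limma, with 951, 845 and 656 genes at an unadjusted p under 0.05. The count was 168 when 180 min was left out, 135 for 225 min (28 rises and 107 falls) and 340 for 210 min, the shallowest library (176 rises and 164 falls). In all 6 of these fits the 55 called rises stayed above 0 and the 136 called falls below 0. Their windows did not overlap, so leaving out 1 library could not have changed a sign. With a linear term of time shared by both windows 0 genes were called and 83 had an unadjusted p under 0.05. In that fit 11 of the called genes turned sign, each with adjusted p = 1.0, among them TKL2 (-0.50), GND2 (-0.16), SPG4 (-0.31), YBR116C (-0.53), MOH1 (-0.12), HPF1 (-0.08), GAP1 (-0.01), SSE2 (-0.05), YOR152C (-0.15) and STM1 (0.04). The median over ribosomal protein genes was -0.29 in that fit, which gives both windows the same slope. Their median changes were -0.38 and -0.83 inside the earlier window and -0.33 and -0.22 inside the later one. The value of -0.29 is therefore not the difference net of each window's own trend.

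Cytosolic ribosomal protein genes made up nearly all of the falls. Of 137 tested, 128 fell and 0 rose, and after scaling 123 fell. The large subunit had 75 of 81 genes that fell, with a median log2 difference of -1.61 (-1.83 scaled), and the small subunit had 53 of 56, with a median of -1.66 (-1.88 scaled). Among all other genes 8 of 4701 fell, or 0.170%, and 16 fell after scaling. The windows did not overlap in 135 of the 137 genes, against 4.74% of other genes in that direction. Over the 6 fits that leave out 1 library, between 0 and 135 ribosomal protein genes fell, with 0 without the 195, 240 or 255 min library. The median stayed between -1.94 and -1.37. All 137 differences stayed below 0, which was bound to hold in the 135 genes with windows apart.

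The drop was under way before the boundary between the windows, and the interval with the largest drop lay inside the earlier window. The median change of ribosomal protein genes was -0.38 on the log2 scale into 195 min, then -0.83 into 210 min and -0.65 into 225 min, and shrank to -0.33 into 240 min and -0.22 into 255 min. The largest single drop was into 210 min for 107 of the 137 genes and into 225 min for 24. The other 6 had it into 195 min (3), 240 min (1) or 255 min (2). In 111 of the 137 the level went down at each of the 5 intervals, against 2.96% of all genes tested and 0.681% of genes outside the group. Relative to 0 min the 6 successive medians were -0.44, -0.85, -1.66, -2.35, -2.66 and -2.84 from 180 to 255 min, and the last, at 360 min, was -3.05.

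RPL8A and RPS22A stood at the lower end. RPL8A, which encodes a protein of the large subunit (chromosome VIII, 35255 to 36025 in R64), had 124.5, 82.3 and 72.3 RPM at 225, 240 and 255 min, against 517, 399.5 and 240.6 RPM at 180, 195 and 210 min. Its log2 level fell by 2.02 (SE 0.29, adjusted p = 0.0158 with limma), to 90.5 RPM, against 368 RPM at 180 to 210 min (geometric means). RPS22A, a gene of the small subunit (chromosome X, 74910 to 75302), had 355, 264 and 212 RPM at 225 to 255 min, against 1769, 1315 and 584 RPM at 180 to 210 min, and fell by 2.03 (SE 0.36, adjusted p = 0.0169). In both genes each value was lower than the one 15 min before. Their windows were apart, as the choice of the 15 largest falls required.

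RPS18B, RPS27B and RPS10A of the small subunit fell by 1.99, 1.98 and 1.95 (SE 0.33, 0.30 and 0.29), each with adjusted p = 0.0158. RPS27B is the member of these whose reads are not divided with another gene. It had 288, 229 and 169 RPM at 225, 240 and 255 min, against 1265, 1003 and 541 RPM at 180, 195 and 210 min. RPS31, which encodes a small subunit protein made as a fusion with ubiquitin, had 1387, 1077 and 885 RPM at 225 to 255 min, against 5660, 4689 and 2423 RPM at 180 to 210 min, a fall of 1.87 (SE 0.30). RPL39 and RPL32, large subunit genes with no paralog, fell by 1.84 and 1.92 (SE 0.30 each). RPS0A, RPL17B, RPS7A, RPL34A, RPL26B, RPL24A and RPL9A complete the 15 largest falls, at -1.93 to -1.84, each with adjusted p = 0.0158 by limma. Windows apart was a condition for this group.

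Rap1 is the general activator of ribosomal protein genes, and its core motif, searched as ACCCNNACA on both strands, was looked for in the 500 bases before the annotated start of each gene in R64. It was found at 52 of the 128 ribosomal protein genes that fell (40.6%) and at 54 of all 137 (39.4%), against 5.53% of the 4741 genes tested and matched to R64. Of the 15 largest falls 7 held a match, with RPS22A and RPS18B among the 8 that did not. 5 of the 7 are shown because they carry the motif shared within the group that fell. Each is a stretch of 30 bases printed 5′ to 3′ on the strand of its gene, with the match in capitals. A match of these letters is not evidence of binding.
RPL8A, chrVIII:36245-36274, minus strand: tgaagaaaacACCCAAACAtatctaggcca
RPS10A, chrXV:866748-866777, plus strand: attctgggttTGTATGGGTgttacaccggt
RPS7A, chrXV:505311-505340, plus strand: accttatcacACCCAAACAtatgatatggt
RPL34A, chrV:270478-270507, minus strand: tttagtggtaTGTATGGGTgataaattttt
RPL26B, chrVII:555518-555547, plus strand: gcattaaaggTGTTTGGGTttaataggagc

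The match ends 230 bases before the start of RPL8A and 464 before that of RPS7A, with the other 3 in between. In RPL8A and RPS7A the motif reads forward on the strand of the gene, and in the other 3 its complement is printed. The RRPE motif of ribosome biogenesis genes (AAAAATTT) was at 24.2% of the ribosomal protein genes that fell, close to the 22.1% of all genes, and the PAC motif (GCGATGAG) at 0.781%, against 5.46% of all genes.

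The 9 ribosomal protein genes not called were RPL16A, RPL20A, RPS14B, RPS27A, RPL1A, RPL22B, RPL14B, RPS28B and RPL15B. RPL15B stood apart, with 101, 108 and 92.7 RPM at 225, 240 and 255 min, against 115, 124 and 93.7 RPM at 180, 195 and 210 min. The windows overlapped, and its log2 difference of -0.14 (SE 0.16, adjusted p = 0.628) was the smallest of the 137. RPL1A had a log2 difference of -0.96 with adjusted p = 0.0200, short of the required size, and passed after scaling (-1.18). RPL16A had -1.55 (SE 0.39, adjusted p = 0.0513), and RPS28B rested on few reads, with 9.95, 24.7 and 11.8 RPM at 225 to 255 min against 37.4, 20.7 and 14.8 RPM at 180 to 210 min.

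Most yeast ribosomal proteins come from pairs of nearly identical genes, and 108 of the 137 genes share reads, meaning that their values are not whole numbers of reads in most libraries that list them, so values of single members are uncertain. Of 59 pairs both members were called in 50, and the median difference within a pair was 0.29 on the log2 scale. In 12 pairs it was above 0.5. RPL15A stood at -1.47 and RPL15B at -0.14, RPS22A at -2.03 and RPS22B at -1.03, and RPL14A at -1.68 and RPL14B at -0.84. RPS27A and RPS27B, whose reads are not divided, stood at -1.06 and -1.98. The differences within pairs were not tested.

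**Figure D2:**
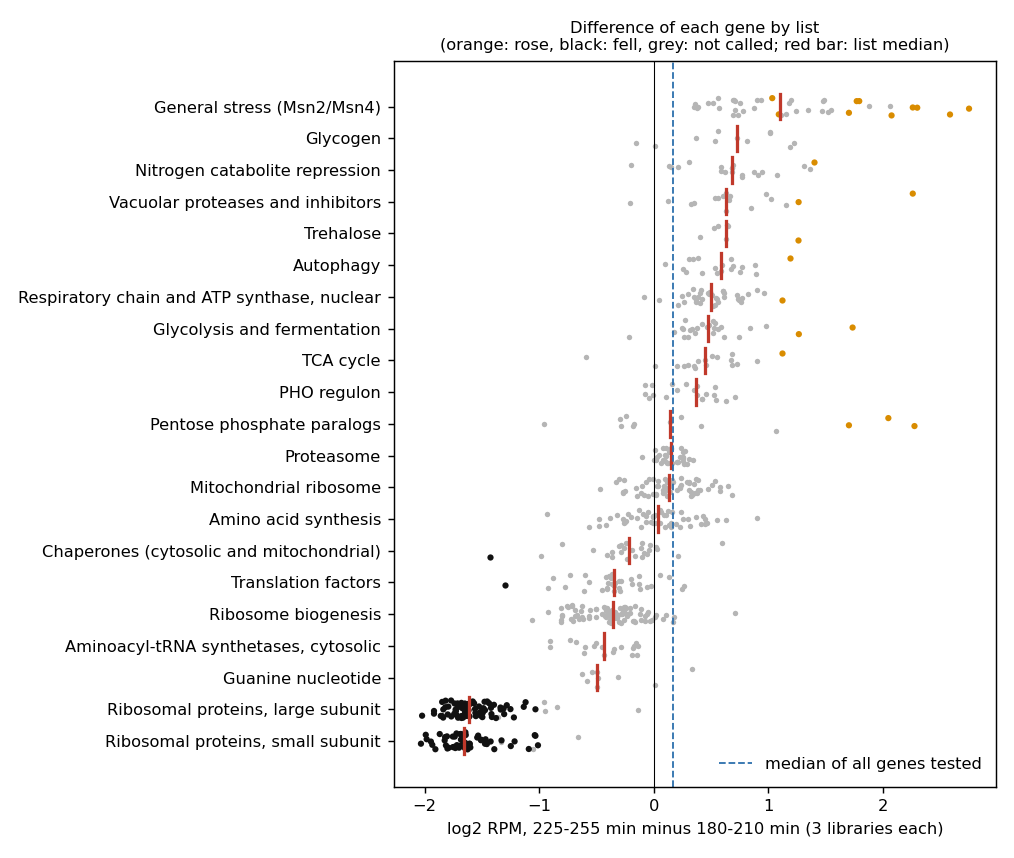
Log2 RPM difference, 225 to 255 min minus 180 to 210 min (horizontal axis, 3 libraries in each window), for every tested gene of 21 gene lists (vertical axis); orange points rose, black points fell, grey points were not called, red bars are list medians and the dashed line is the median of all genes tested, 0.16. Ribosomal protein genes lie between -2.03 and -0.14, all below 0, and the 42 general stress genes lie between 0.35 and 2.75, all above 0.

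The 8 other genes that fell, named after their values were seen, included 3 whose products sit on the ribosome. ASC1, the ribosome-bound protein known as RACK1 in animals (chromosome XIII, 499456 to 500688), had 479, 326 and 274.8 RPM at 225, 240 and 255 min, against 1392, 1125 and 684 RPM at 180, 195 and 210 min. It fell by 1.55 (SE 0.28, adjusted p = 0.0169 with limma), and its reads can include those of the small nucleolar RNA gene SNR24, which overlaps it. SSB1, an Hsp70 chaperone of nascent chains, had 378, 337 and 296 RPM at 225 to 255 min, against 1259, 992 and 595 RPM at 180 to 210 min, and fell by 1.43 (SE 0.25, adjusted p = 0.0158). Both followed the time course of the ribosomal protein genes, lower at each interval. Their windows did not overlap, as in every called gene. STM1, which binds idle ribosomes, fell by 1.30 (SE 0.27), RPA135, a core subunit gene of RNA polymerase I, by 1.19 (SE 0.26) and MIS1, a mitochondrial folate enzyme, by 1.23 (SE 0.29).

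The other 3, YBR191W-A, YMR230W-A and YMR141C, are short open reading frames. YMR230W-A lies within 200 bases of RPS10B and YMR141C within 200 bases of RPL13B, so reads of a neighbour could reach them. The gene nearest to YMR230W-A is PEP5, at 88 bases. YBR191W-A had no match in the R64 annotation. Both YBR191W-A and YMR230W-A share reads, so these falls may rest on reads of other genes. SSB1 shares reads with its paralog SSB2, which had a log2 difference of -0.98 (SE 0.19, adjusted p = 0.0215) and was called only after scaling (-1.20).

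Lists of the translation machinery lay below the median of all genes with few members past the test. Of 88 ribosome biogenesis genes, which make and assemble ribosomal RNA, 0 were called by limma (1 higher and 17 lower at an unadjusted p under 0.05). Above 0 lay 7 of the 88, against 69.9% of all genes, and the list median was -0.36 (-0.58 scaled). That median was -0.06 with 180 min left out and -0.21 with 225 min left out, and it lay between -0.53 and -0.34 when another was left out. HAS1, an RNA helicase of this list, had the lowest value, -1.06 (SE 0.30, adjusted p = 0.0754). Of 20 genes of RNA polymerases I and III, RPA135 alone fell, with a list median of -0.31 that was -0.13 with 180 min left out and -0.48 with 195 min left out. Of 36 translation factors 1 fell, STM1, and 3 after scaling, where YEF3 (elongation factor 3) and EFT2 (elongation factor 2) stood at -1.10 and -1.15. Their median was -0.35. All 19 cytosolic aminoacyl-tRNA synthetase genes lay below 0, with a median of -0.44, and 0 were called (12 lower at an unadjusted p under 0.05). In 12 of the 19 the windows were apart downward, against 7.4% of all genes tested. After scaling 1 fell, DED81, the asparaginyl-tRNA synthetase gene, at -1.13.

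The largest rises were among general stress genes. GRE1, which encodes a hydrophilic protein of osmotic and desiccation stress (chromosome XVI, 128632 to 129138), had 316, 583 and 938 RPM at 225, 240 and 255 min, against 51.5, 80.4 and 137 RPM at 180, 195 and 210 min. Its log2 level rose by 2.75 (SE 0.42, adjusted p = 0.0158 with limma), or 6.73-fold, and by 2.53 scaled. SIP18, a related hydrophilin gene (chromosome XIII, 611016 to 611255), had 706, 1284 and 1821 RPM at 225 to 255 min, against 110.5, 161 and 431 RPM at 180 to 210 min, a rise of 2.58 (SE 0.48, adjusted p = 0.0178). Both rose at each of the 5 intervals, and both stood higher still at 315 to 360 min, at 2679 and 3917 RPM (geometric means).

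Of the 42 genes of the general stress list, which holds targets of Msn2 and Msn4, 10 rose and 0 fell, with 6 that rose after scaling, against 1.14% and 0.537% of all genes. The median was 1.10 (0.88 scaled). All 42 lay above 0, against 69.9% of all genes, and in 34 the windows were apart upward, against 23.2%. Over the fits that leave out 1 library the count ran from 0 to 28 and the median from 0.71 to 1.37. The count was 0 without the 195, 240 or 255 min library, 5 without 225 min, 12 without 180 min and 28 without 210 min. At an unadjusted p under 0.05, 36 of the 42 were higher, against 17.7% of all genes.

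FMP16, which encodes a mitochondrial protein, had 732, 973 and 1282 RPM at 225 to 255 min, against 100.2, 202 and 379 RPM at 180 to 210 min, and rose by 2.30 (SE 0.41, adjusted p = 0.0169). HSP26, a small heat shock protein that holds unfolded proteins (chromosome II, 382030 to 382674), had 618, 820.5 and 1202 RPM at 225 to 255 min, against 160.1, 214 and 429 RPM at 180 to 210 min, and rose by 1.79 (SE 0.35, adjusted p = 0.0212). The windows were apart in both genes, as the choice of the 15 largest rises required. MOH1 rose by 1.77 (SE 0.39) as deposited and 1.55 scaled. SPG4, a gene needed for survival at high temperature in stationary phase, rose by 2.07 (SE 0.50), GRX1, a glutaredoxin gene, by 1.09 (SE 0.24) and SSE2, a nucleotide exchange factor of Hsp70, by 1.03 (SE 0.26), and these 3 were not called after scaling. SPG4 and SSE2 were named after their values were seen.

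Several familiar stress genes missed the threshold. CTT1, the cytosolic catalase gene, had 255, 177 and 375 RPM at 225, 240 and 255 min, against 28.1, 84.3 and 144.5 RPM at 180, 195 and 210 min, a log2 difference of 1.88 (SE 0.51, adjusted p = 0.0695). Its windows did not overlap, but its values dipped at 240 min. HSP12, which encodes a membrane-protecting protein, had a log2 difference of 1.48 (adjusted p = 0.0513), and DDR2 one of 1.55 (adjusted p = 0.0507). ALD3, a cytosolic aldehyde dehydrogenase gene, had a log2 difference of 2.06 (adjusted p = 0.0511). HSP12, DDR2 and ALD3 were named after their values were seen.

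The stress response element, searched as AGGGG on both strands in the 500 bases before the start, was found at 36 of 52 genes that rose and matched R64 (69.2%), against 34.8% of all 4741 genes and 28.1% of the ribosomal protein genes that fell. At least 2 matches were found at 30.8% of the rises and 8.63% of all genes. The post-diauxic shift motif TNAGGGAT, which also holds AGGG, was at 15.4% of the rises and 3.88% of all genes. Of the 15 largest rises 13 held a stress element match, and GRE1 and GPG1 did not. Matches nearest to the start are shown for 6 whose product has a known role or which head the list, 30 bases each on the strand of the gene, with the element or its complement in capitals.
SIP18, chrXIII:610635-610664, plus strand: atgctttcggtaCCCCTttaagacaactat
PAI3, chrXIII:610477-610506, minus strand: gtcgggaatctcAGGGGcgaccgcccccgg
FMP16, chrIV:588563-588592, minus strand: ttcctgtatcaaCCCCTtcttcctgtacag
HXT5, chrVIII:296734-296763, minus strand: ttaattagttttAGGGGcacggagtaaaca
HSP26, chrII:381692-381721, plus strand: ggttattccctcCCCCTtatgcgtccaaaa
TDH1, chrX:338030-338059, plus strand: atagtctgaagaAGGGGgggaggagcatgt

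SIP18 and PAI3 are neighbours read in opposite directions, so the 500-base windows before them overlap and their matches were in part counted for both. YMR175W-A, whose log2 difference was 2.62, lies 58 bases from SIP18 and its nearest match falls within that gene, so its reads may belong to the SIP18 transcript. Matches of the Pho4 motif CACGTG were at 11.5% of the rises and 6.58% of all genes, and those of the GATA motif GATAAG at 28.8% and 22.5%. A match is a description of the sequence and says nothing of which factor was bound.

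**Figure D3:**
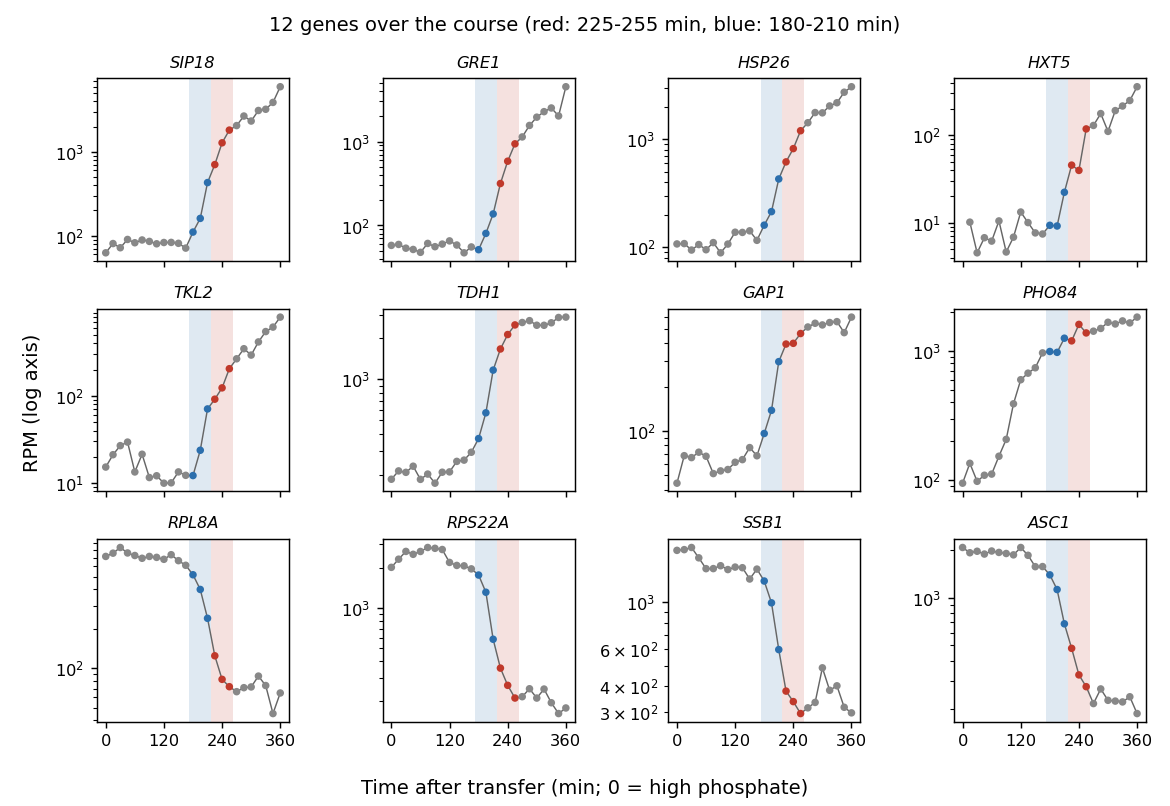
RPM (logarithmic vertical axes) of 12 genes in every library that lists them against time after transfer (min, horizontal axes), 1 point per library; red points are 225 to 255 min, blue points 180 to 210 min, grey points other times. SIP18 stands at 706 to 1821 RPM at the red points and 110.5 to 431 RPM at the blue ones, and RPL8A at 72.3 to 124.5 RPM and 240.6 to 517 RPM in the same order.

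Inhibitors of vacuolar proteases rose. PAI3, the inhibitor of proteinase A (chromosome XIII, 610159 to 610365), had 612, 891 and 1160 RPM at 225, 240 and 255 min, against 94.5, 165.5 and 369 RPM at 180, 195 and 210 min, a rise of 2.26 (SE 0.43, adjusted p = 0.0192 with limma) and 2.04 scaled. PBI2, the inhibitor of proteinase B, rose by 1.26 (SE 0.25, adjusted p = 0.0215), with reads divided with another gene. These were the 2 called of 17 genes in the list of vacuolar proteases and inhibitors, whose median was 0.63. In 13 of the 17 the windows were apart upward, against 23.2% of all genes tested. PRB1, proteinase B itself, had a log2 difference of 0.98 (SE 0.27, adjusted p = 0.0712). Of 19 autophagy genes 1 rose, YOR152C, at 1.19 (SE 0.29), and 0 did after scaling, with a median of 0.59, or 0.33 without the 180 min library.

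Of 13 pentose phosphate genes 3 rose, and 0 after scaling, against 1.14% and 0.537% of all genes. The list median was 0.14, close to the 0.16 of all genes, and 7 of the 13 lay above 0, against 69.9% of all genes. TKL2, the minor transketolase, had 91.6, 123.5 and 205 RPM at 225, 240 and 255 min, against 12.2, 23.8 and 70.8 RPM at 180, 195 and 210 min, and rose by 2.27 (SE 0.55, adjusted p = 0.0460). GND2, the minor 6-phosphogluconate dehydrogenase, had 442, 497 and 654 RPM at 225 to 255 min, against 55.2, 129 and 288 RPM at 180 to 210 min, and rose by 2.05 (SE 0.48, adjusted p = 0.0393). NQM1, the paralog of the transaldolase gene TAL1, rose by 1.70 (SE 0.39). Each of the 3 was higher at every time of the later window than at any of the earlier one, as were all called rises. None of the 3 passed after scaling (1.48 to 2.05). With the linear time term TKL2 and GND2 turned to -0.50 and -0.16.

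The other isoforms were not called. TKL1 had a log2 difference of -0.24 (SE 0.14, adjusted p = 0.308), GND1 one of -0.29 (SE 0.18, adjusted p = 0.334) and TAL1 one of 0.24 (SE 0.12, adjusted p = 0.264). The difference between paralogs was not tested. YBR116C, named after its values were seen and with no entry in the R64 annotation, had 90.1, 118.5 and 204 RPM at 225 to 255 min, against 12.2, 23.0 and 70.8 RPM at 180 to 210 min, close to TKL2 in each library.

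Of 26 genes of glycolysis and fermentation 2 rose, TDH1 and ENO1, and 1 after scaling. TDH1, a glyceraldehyde phosphate dehydrogenase gene (chromosome X, 338271 to 339269), had 1674, 2138 and 2516 RPM at 225, 240 and 255 min, against 368, 568.5 and 1171 RPM at 180, 195 and 210 min, and rose by 1.73 (SE 0.36, adjusted p = 0.0249 with limma). Its paralogs TDH2 and TDH3 had log2 differences of 0.56 (adjusted p = 0.145) and 0.46 (adjusted p = 0.255). ENO1, an enolase gene, rose by 1.27 (SE 0.30, adjusted p = 0.0450) and was not called after scaling, and ENO2 had a log2 difference of 0.27 (adjusted p = 0.446). All of these share reads, the differences between paralogs were not tested, and the list median was 0.48.

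HXT5, a hexose transporter made in slowly growing cells (chromosome VIII, 294669 to 296447), had 45.6, 39.7 and 118 RPM at 225, 240 and 255 min, against 9.36, 9.19 and 22.3 RPM at 180, 195 and 210 min. It rose by 2.27 (SE 0.46, adjusted p = 0.0244), with only 10 reads in its lowest library. HXT1, HXT2 and HXT3, other hexose transporter genes, had log2 differences of 0.01, -0.22 and 0.04. HXT7, which shares reads, had one of 0.84 (SE 0.39, adjusted p = 0.233 with limma), and its windows overlapped. VID24, named after its values were seen, which directs gluconeogenic enzymes to degradation, had 47.8, 52.2 and 59.7 RPM at 225 to 255 min, against 12.2, 19.2 and 29.5 RPM at 180 to 210 min, and rose by 1.48 (SE 0.31, adjusted p = 0.0249). GPG1, a proposed gamma subunit of the Gpr1 glucose signalling pathway, rose by 1.65 (SE 0.37, adjusted p = 0.0327).

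Of reserve carbohydrate genes ATH1, the acid trehalase that breaks trehalose down, had 117, 106 and 138 RPM at 225, 240 and 255 min, against 32.8, 52.1 and 73.7 RPM at 180, 195 and 210 min. It rose by 1.26 (SE 0.27, adjusted p = 0.0301), and was the 1 called of 7 trehalose genes, whose median was 0.63 (0.28 without the 180 min library). Of 11 glycogen genes 0 were called by limma (6 higher at an unadjusted p under 0.05), with a median of 0.72 that was 0.40 with 180 min left out and 1.10 with 240 min left out. GPH1, glycogen phosphorylase, had a log2 difference of 1.23 (SE 0.38, adjusted p = 0.0936).

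Of 20 genes of peroxide and superoxide defence 2 rose, TSA2 and GRX1, and 1 after scaling. TSA2, a peroxiredoxin gene, had 127, 153 and 170.4 RPM at 225, 240 and 255 min, against 35.6, 54.4 and 84.1 RPM at 180, 195 and 210 min, and rose by 1.45 (SE 0.28, adjusted p = 0.0206). The list median was 0.45, or 0.27 without the 180 min library. GTT1 and ECM4, glutathione transferase genes of no list, named after their values were seen, rose by 1.44 and 1.19 (SE 0.30 and 0.15, adjusted p = 0.0247 and 0.0158), the second not after scaling.

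GAP1, the general amino acid permease under nitrogen catabolite repression (chromosome XI, 515063 to 516871), had 393, 397 and 463 RPM at 225, 240 and 255 min, against 96.4, 139 and 298 RPM at 180, 195 and 210 min. It rose by 1.39 (SE 0.34, adjusted p = 0.0463), not after scaling, and was the 1 called of 21 genes in that list, whose median was 0.69. In 14 of the 21 the windows were apart upward, against 23.2% of all genes tested. Respiratory genes encoded in the nucleus, ATP synthase included, had smaller and more even differences. The iron-sulfur subunit of succinate dehydrogenase, SDH2, rose by 1.12 (SE 0.24) and alone was called of 38 genes, 0 after scaling. Above 0 lay 37 of the 38 (35 scaled), against 69.9% of all genes (43.4% scaled). In 31 the windows were apart upward, against 23.2% of all genes, and the list median was 0.50 (0.28 scaled).

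Of the 55 rises 33 were in none of the lists. They include GSC2, a glucan synthase gene (1.18, SE 0.21), SNZ1 and SNZ2 of vitamin B6 synthesis (1.12 and 1.01, SE 0.22 and 0.23), the mitochondrial ADP/ATP carrier gene AAC1 (1.08, SE 0.22), the cell wall gene HPF1 (1.55, SE 0.33) and the uncharacterised YBR285W (2.23, SE 0.44), YCL048W-A (2.22, SE 0.38), YKL065W-A (1.77, SE 0.25) and YHR033W (1.56, SE 0.31). YKL123W and SSH4, both among the 55, had equal values at 180, 195 and 210 min (10.3, 9.19 and 14.8 RPM), and YBR116C lay close to TKL2. Such rows may hold the same reads, so the 55 may stand for fewer separate transcripts. GSC2, SNZ1, SNZ2, AAC1, YKL123W and SSH4 were named after their values were seen. In 36 of the 55 the level went up at each of the 5 intervals, against 3.66% of all genes. The 55 were called on these same libraries, which favours steady rises, so that share says little beyond the calls. The largest single rise was into 195 min in 15, 210 min in 19 and 225 min in 16. In the other 5 it was into a later time, 240 min (3) or 255 min (2).

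The PHO regulon gave no call in this step. Of 20 members tested 0 were called by limma (10 higher and 0 lower at an unadjusted p under 0.05), with log2 differences from -0.08 to 0.71 and a median of 0.36 (0.14 scaled). In 9 of the 20 the windows were apart upward, against 23.2% of all genes tested. Relative to 0 min the median stood at 2.66, 2.69 and 2.85 at 180, 195 and 210 min and at 2.89, 2.95 and 2.90 at 225, 240 and 255 min, and was 2.89 at 360 min. PHO84, the high-affinity transporter, had 1193, 1599 and 1374 RPM at 225, 240 and 255 min, against 988, 973 and 1251 RPM at 180, 195 and 210 min, a log2 difference of 0.38 (SE 0.17, adjusted p = 0.212). Its windows overlapped. PHO5, the main acid phosphatase, had 3882, 3834 and 3796 RPM at 225 to 255 min, against 2808, 3052 and 3709 RPM at 180 to 210 min (0.28, SE 0.16, adjusted p = 0.326).

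PHM8, a nucleotidase gene, had the largest difference of the regulon, 0.71 (SE 0.22, adjusted p = 0.0932), and PHO8, the vacuolar alkaline phosphatase, had 0.63 (SE 0.17, adjusted p = 0.0687). SPL2, which restrains low-affinity uptake, had -0.08 (SE 0.13, adjusted p = 0.728). Among 12 genes of the pathway's kinase, cyclins, carriers and activators 0 were called (6 higher at an unadjusted p under 0.05). PHO87, a low-affinity transporter gene, reached adjusted p = 0.0327 with a log2 difference of 0.82, under the required size.

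**Figure D4:**
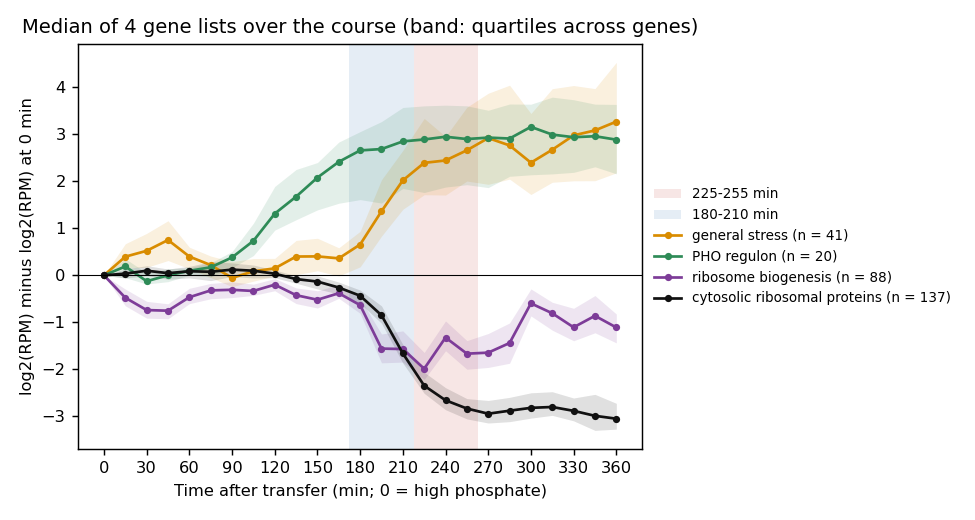
Median over genes of log2 RPM minus the gene's value at 0 min (vertical axis) against time (min, horizontal axis) for 4 lists, with bands from the lower to the upper quartile across genes; the red strip is 225 to 255 min and the blue strip 180 to 210 min, and 1 of the 42 general stress genes has no 0 min value. The ribosomal protein median is -2.84 at 255 min and -0.44 at 180 min, while the PHO regulon median is 2.90 and 2.66 at the same times.

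Many lists gave no call in either direction. The median was 0.15 for 33 proteasome genes (1 higher at an unadjusted p under 0.05), 0.13 for 63 genes of the mitochondrial ribosome (11 higher), 0.17 for 11 ADE genes of purine synthesis (3 higher), 0.08 for 10 histone genes (0 in either direction) and 0.02 for 31 DNA replication genes (3 higher and 1 lower), near the 0.16 of all genes. Guanine nucleotide genes had a median of -0.50 over 9 genes (4 lower), or -0.22 without the 180 min library, with IMD3 and IMD2, IMP dehydrogenase genes that share reads, at -0.59 and -0.50. Chaperones of the cytosol and mitochondria had a median of -0.21 over 26 genes, or -0.13 without the 210 min library, with SSB1 called as deposited and 3 after scaling, among them SSA2 at -1.02.

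The step was then set against its neighbours, 180 to 210 min minus 120 to 165 min before it and 315 to 360 min minus 225 to 255 min after it, by the difference between steps in 1 fit of all 25 libraries. Each neighbouring step shares 3 libraries with this one, so the values are given side by side. The step after it skips the libraries of 270 to 300 min, so its windows lie further apart in time than those of the other steps. For ribosomal protein genes the median step was -0.87 before, -1.64 here and -0.32 after. It was 1.05, 1.09 and 0.37 for general stress genes, 1.35, 0.77 and -0.01 for glycogen genes, 0.64, 0.36 and 0.03 for the PHO regulon, and 0.18, 0.16 and 0.07 for all genes with the 3 steps. For ribosome biogenesis genes it was -0.85 before, -0.36 here and 0.66 after.

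Against the preceding step 2 of 4734 genes differed by limma (0.0422%), both above it, and 0 below, with 426 at an unadjusted p under 0.05. CTR86 had 30.4, 35.3 and 37.7 RPM at 225, 240 and 255 min, against 15.0, 16.1 and 14.8 RPM at 180, 195 and 210 min, down to 10 reads in 1 library, and a geometric mean of 30.1 RPM at 120 to 165 min. Its steps differed by 2.15 (SE 0.39, adjusted p = 0.0303). PUS1, a pseudouridine synthase gene, had 56.7, 76.9 and 78.5 RPM at 225 to 255 min, against 41.2, 32.9 and 42.8 RPM at 180 to 210 min and 70.0 RPM at 120 to 165 min, a difference of 1.71 (SE 0.32, adjusted p = 0.0303). Of the windows at 120 to 165, 180 to 210, 225 to 255 and 315 to 360 min, both were lowest at 180 to 210 min. Of 137 ribosomal protein genes 0 differed, so their larger median was not distinguished from the preceding step gene by gene. The count was 161 when 210 min was left out, 37 for 180 min, 10 for 225 min and 0 for 195, 240 or 255 min.

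Against the following step 140 of 4412 genes differed, 10 above it (0.227%) and 130 below it (2.95%). Of the 130, 99 were ribosomal protein genes, among 136 tested, 61 of the large and 38 of the small subunit. RPL8A fell by 2.02 in this step and had -0.46 in the next, a difference of -1.56 (SE 0.36, adjusted p = 0.0173). Among ribosome biogenesis genes 9 of 85 lay below, HAS1 with a difference of -2.11 (SE 0.48). SSB1 and MIS1 had -1.48 and -1.64 (adjusted p = 0.0122 and 0.0124). Above the following step was YBR285W, with a rise of 2.23 here and a step of -0.02 after it (difference 2.25, SE 0.53, adjusted p = 0.0197). After scaling 181 differed, 2 above (0.0453%) and 179 below (4.06%). The count was 0 when 240 or 255 min was left out, 78 for 180 min and 320 for 210 min.

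**Figure D5:**
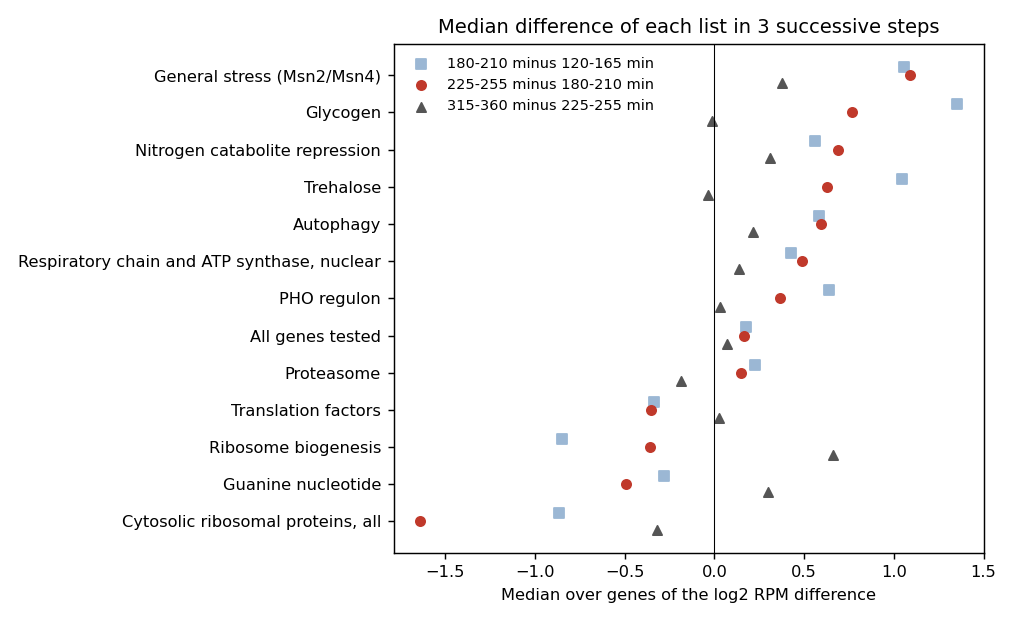
Median over genes of the log2 RPM difference (horizontal axis) in 3 steps for 12 lists and all genes tested (vertical axis). Squares are 180 to 210 minus 120 to 165 min, circles 225 to 255 minus 180 to 210 min, triangles 315 to 360 minus 225 to 255 min. The last step skips 270 to 300 min and spans a longer time. Ribosomal protein genes lie at -0.87, -1.64 and -0.32, and general stress genes at 1.05, 1.09 and 0.37.

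Genes at the limit of listing were looked at separately, since 731 named genes were listed in some but not all of the 6 libraries. Of these, 54 were listed in all 3 libraries of 225 to 255 min and in 0 of 180 to 210 min, and 0 the other way round. The 210 min library was the shallowest of the 6, so a low gene can miss being listed there without a difference in level. DAK2, a dihydroxyacetone kinase gene, had 14.9, 24.7 and 26.7 RPM at 225, 240 and 255 min, at least 2.10-fold higher than the geometric mean of the 10-read floors at 180 to 210 min. POT1, the peroxisomal thiolase of fatty acid oxidation, had 15.4, 9.17 and 26.7 RPM, at least 1.53-fold higher. The highest floor of the earlier window was 14.8 RPM, at 210 min. POT1 lay below it at 240 min, and both DAK2 and POT1 lay close to it at 225 min. The values of SDC25 and MSS11, which with YKL107W complete the 5 highest of these genes, also lay close to it. These genes were picked for being listed in the later window alone, so their folds are no test of a rise.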

How the data were processed

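Polyadenylation or strand selection is not described in the sources used here, and total RNA is the labelled molecule. Per the submitters' processing notes reads were aligned with Bowtie to build R64. The authors deposited log2 values whose antilogs sum to 1000000 in each library, so they are log2 RPM, and although the series' design text speaks of the first time point, the deposited values are levels. Blank values were taken as below 10 reads, and library sizes were worked out from the lowest listed value of each library. Low values were whole multiples of 1 read in 96.6% of cases (tolerance 0.01), but no count test was run. Genes whose values were mostly not whole are described as sharing reads.

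Of 6701 rows, 51 had no name and 932 names were never listed. The 4838 genes listed in all 6 libraries were tested with limma 3.58.1 (R 4.3.3), log2 values unaltered, with a variance trend and Benjamini-Hochberg adjustment. The method was run on simulated data with independent noise around a flat level in each window. That run does not check it for levels that drift within windows or for neighbouring times used as replicates, as here. The steps were compared in 1 limma fit of all 25 libraries. Scaling divided RPM by the share of reads outside ribosomal protein genes. Summed levels, shares and motif counts were computed in Python 3.11.15. Depth limits the precision of genes near 10 reads, and intervals for counting error were not computed. The text names the 15 largest rises and falls called on both scales with windows apart, up to 4 members of each list by size of the test statistic, the 5 highest genes listed in 1 window, and paralogs, or says otherwise. The windows and lists were chosen with earlier results of these data known. Alternatives were other scalings, filters, weights, a linear time term and each library left out.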

Additional observations from a re-analysis of the deposited data

Results flagged for a closer look

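The difference between this step and the following one, tested across all 25 libraries with limma, passed for 140 of 4412 genes, and 99 of the 130 below it were ribosomal protein genes. The difference from the preceding step passed for 2 genes, CTR86 and PUS1. Both counts depended on single libraries, with 0 to 320 and 0 to 161 genes when 1 library was left out.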

How the results depend on the processing

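The 191 genes called between the windows (55 rose, 136 fell) ranged from 0 to 340 when 1 library was left out, with 0 to 176 rises and 0 to 164 falls. Against the preceding step the 2 genes became 0 to 161 (0 to 31 above, 0 to 130 below), and against the following step the 140 became 0 to 320 (0 to 96 above, 0 to 224 below). Leaving out 195, 240 or 255 min ended all calls between the windows. Leaving out 210 and 225 min together gave 319 genes, 161 of them rises. Rises numbered 26 when scaled over genes other than ribosomal protein genes, 28 when libraries were centred on their median, 114 with array weights, 102 at a minimum log2 difference of 0.58 and 106 with the spread of all 25 libraries. With ribosomal protein genes left out of the fit 29 genes were called (24 rose, 5 fell). With a linear time term 0 were called, 0 that rose and 0 that fell, and 11 called genes turned sign without reaching significance (adjusted p = 1.0 in each): MOH1 at -0.115, HPF1 at -0.078, STM1 at 0.035, YOR152C at -0.148, GND2 at -0.162, TKL2 at -0.502, GAP1 at -0.006, YBR116C at -0.529, SSE2 at -0.048, YMR090W at -0.013 and SPG4 at -0.312. Against the preceding step 1 gene, above it, remained in number when libraries were centred. Against the following step 2 lay above after scaling, 25 at 0.58, and without a variance trend 61 differed, 6 above and 55 below. The difference in the share of reads from cytosolic ribosomal protein genes was between -9.91 and -16.8 percentage points when 1 library was left out, and -5.10 for small subunit genes alone. The cause of these changes was not tested. The other alternatives kept each count within 1.5 times. No paired analysis was possible because the labels carry no replicate number, and consecutive times of 1 culture fill both windows. The depth of the 210 min library, 678064 reads, limits genes near 10 reads.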
